A study of Mus musculus with 6 samples.

Results

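Chaperones and the genes of the endoplasmic reticulum (ER) stress response were followed in neutrophils of cGAS-/- mice, with and without lipopolysaccharide (LPS). The members were 39 genes chosen by name for their function and they were kept apart by compartment: 14 cytosolic chaperones and cochaperones, 2 mitochondrial chaperones, 10 ER chaperones and folding enzymes, 3 genes of ER-associated degradation, 4 sensors or transducers of the unfolded protein response and 6 targets or regulators of the integrated stress response. Of these 39 genes, 37 stood among the 38739 genes of the table and none of the 37 was at 0 throughout. The ER cochaperone genes Dnajb11 and Dnajc3 were not analysed here.

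The samples were RNA from neutrophils recruited by thioglycolate to the peritoneum of C57B/L6 mice with a deletion of cyclic GMP-AMP synthase (cGAS), a cytosolic DNA sensor. Both groups carried the deletion, and no wild-type library was analysed here, so nothing below compares genotypes. 3 samples received medium alone and 3 received LPS of E. coli 026:B6 for 2 h, at 500 ng/mL by the labels, while the methods of the study name a lower dose for the RNA sequencing. The sources do not say whether the 3 samples of a group came from separate mice, or whether equal sample numbers mark pairs. The p-values therefore measure the spread between these samples, which may be technical. The deposited values are a form of TPM, an abundance per transcript that is set to the same total in every library. For each gene the mean was taken over its transcripts, and each sample was then scaled by its own factor, so the unit is called scaled TPM below. All tests compare 3 LPS with 3 untreated samples, on log2(scaled TPM + 1). Values can be compared between samples for 1 gene but not between genes, and they keep no read depth, so a depth behind each value cannot be given.

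The libraries differed in make-up. Of the summed value, pseudogenes held 64.7% to 70.7% without LPS and 32.3% to 40.5% with it, while protein-coding genes held 21.6% to 28.97% and 50.6% to 59.99%. The mean over transcripts lowers genes with many transcripts in such a sum. These are therefore not shares of the reads, and serve to compare samples only. Among the 6004 protein-coding genes with a mean value of at least 1, the median difference between LPS and untreated was 0.37 on the log2 scale, and it was 0.02 once each sample was rescaled to its protein-coding total. Changes of members are therefore also given after that rescaling. The share of the protein-coding total held by the 37 genes was 0.477%, 0.175% and 0.346% in untreated samples 1, 2 and 3, and 0.578%, 0.278% and 0.512% in LPS samples 1, 2 and 3, so that these ranges overlapped. Cgas itself was between 0.180 and 0.307 in the untreated and between 0.0286 and 0.184 in the LPS samples. The sum of neutrophil markers (16 of 20 in the table) ran from 10140 to 29200 without LPS and from 17250 to 57750 with it, and was highest in sample 2 of each group. Most of it was S100a8 and S100a9, and the listed genes did not move together. Hp lay higher in every LPS sample than in any untreated one, while Csf3r, Cxcr2, Cxcr4 and Il1r2 lay lower.

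Markers of other cells were present as well. The summed level of 7 of 9 B cell markers was 1158, 329.8 and 1084 in the untreated and 831.7, 274.2 and 757.3 in the LPS samples. Of 12 of 15 monocyte or macrophage markers the sum was 190.4 to 300.5 without and 346.0 to 479.1 with LPS, of 9 of 10 T cell markers 41.3 to 131.1 and 13.01 to 47.5, of 4 of 8 mast cell markers 25.7 to 85.1 and 83.1 to 131.7, and of 5 of 6 erythroid markers 21.5 to 5629 and 164.8 to 4651. The sums of 5 of 6 eosinophil markers reached 8.52 at most, with Epx at 0 in all samples, and those of 4 of 7 mesothelial markers 0.811. The monocyte or macrophage sums did not overlap between groups, and the part of these cells in the results below was not tested. In bulk RNA, fewer cells of a type and less RNA per cell cannot be told apart.

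Heat shock proteins are chaperones that bind unfolded stretches of other proteins. Members of the HSP70 family work with J-domain proteins, which deliver the client, and with nucleotide exchange factors, which release it; HSP90 finishes the folding of kinases and receptors, and the HSP60 and HSP10 proteins form the folding chamber of mitochondria. In the ER, unfolded proteins are sensed by IRE1, PERK and ATF6, which raise the folding machinery and send lasting misfits to the proteasome. PERK and its sister kinases phosphorylate the initiation factor eIF2 alpha, a block of translation that spares stress transcripts and that is undone by phosphatases with a PPP1R15 subunit. Neutrophils are short-lived cells that carry many of their proteins from the marrow in granules and turn on cytokine and chemokine genes when LPS is sensed through TLR4.

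At the limits of the study (an unadjusted p under 0.01 and a log2 difference over 2, limma), 6 of the 37 genes rose after LPS and 0 fell. They were the cytosolic Dnajb4 and Hspa4, the mitochondrial Hspd1, the degradation gene Herpud1 and the phosphatase subunit genes Ppp1r15a and Ppp1r15b. The same limits called 1.69% of all 23049 genes tested higher and 1.31% lower, and 2.31% of the 12754 protein-coding genes higher and 0.353% lower. At a Benjamini-Hochberg adjusted p under 0.05 over all genes tested (limma), 2 members rose, Dnajb4 and Herpud1, against 0.894% of all genes higher and 0.946% lower, and 1.21% and 0.337% of the protein-coding genes. In 14 members every LPS sample lay above every untreated sample, a pattern of 13.1% of all genes and 18.0% of the protein-coding genes tested. In 1 member, Ern1, every LPS sample lay below, against 9.75% and 8.71%, and in the other 22 members the groups overlapped.

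**Figure D1:**
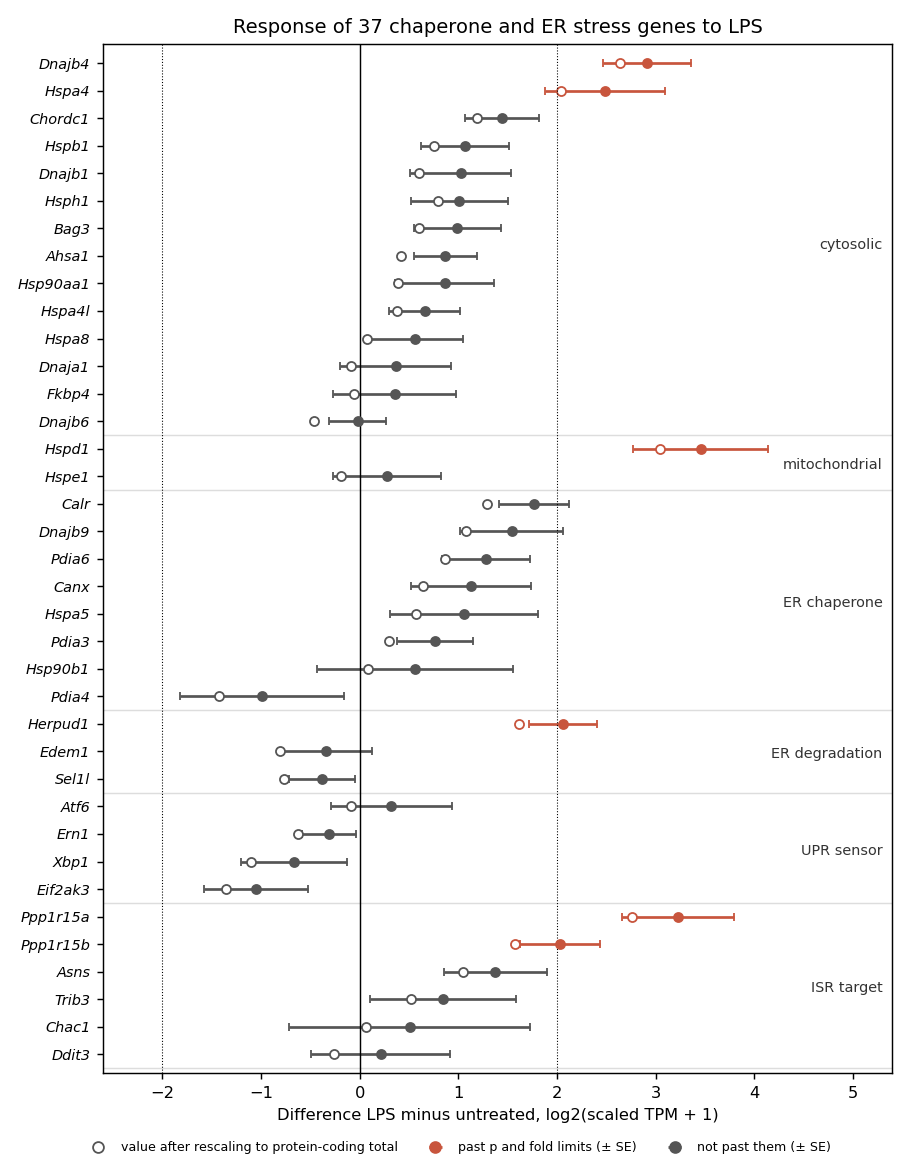
The differences of the 37 members between LPS and untreated samples on the log2(scaled TPM + 1) scale, with their SE (3 samples in each group), ordered by group and size. Dotted lines mark the fold limit of 2 in either direction, red marks the 6 genes past the p and fold limits, and open circles give the difference after rescaling to the protein-coding total, in the colour of the call before it. 30 filled circles lie above 0 and 25 open ones do.

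The median difference of the 37 genes was 0.87 (log2), beside a median of 0.01 over all genes tested. Over the 6004 protein-coding genes with a mean value of at least 1 the median was 0.37. The difference was positive in 30 members and negative in 7, while 52.9% of all genes and 58.3% of the protein-coding genes tested had a positive difference. After rescaling to the protein-coding total the members' median was 0.42, with 25 positive and 12 negative, and 3 genes stayed past the p and fold limits: Dnajb4, Hspd1 and Ppp1r15a. On that scale the median was -0.01 over the 12754 protein-coding genes tested and 0.02 over the 6004. The p and fold limits then called 154 of the 12754 genes higher. By compartment the median before rescaling was 0.93 over the cytosolic genes, 1.87 over the 2 mitochondrial genes, 1.09 over the 8 ER chaperones in the table, -0.34 over the 3 degradation genes, -0.49 over the 4 sensors and 1.11 over the targets or regulators of the integrated stress response. After rescaling these medians were 0.51, 1.43, 0.61, -0.76, -0.86 and 0.79. Of the degradation genes 2 were negative on either scale, and of the sensors 3 were negative before and 4 after rescaling.

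Dnajb4 encodes a J-domain protein of the HSP40 class that hands clients to HSP70, and it had the lowest p of the members. Its scaled TPM was 0.983, 1.82 and 0.0557 without LPS and 15.5, 11.8 and 10.9 with it. The untreated samples were all low and well apart from the LPS samples, which stood close together. The log2 difference was 2.91 ± 0.44 (SE, n = 3 per group, adjusted p = 0.0400, limma), and 2.64 after rescaling. It was past the p and fold limits in 15 of 16 other settings, with an adjusted p from 0.0131 to 0.169, and lost the call at a pseudocount of 5. The gene lies at chr3:151884148-151916665 on the minus strand (GRCm39) and overlaps Fubp1 on the other strand.

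Hspa4, an HSP110-type nucleotide exchange factor of HSP70, read 2.40, 6.06 and 14.3 without and 52.4, 26.7 and 42.7 with LPS. The lowest LPS value was above the highest untreated value, but the untreated values themselves were widely spread. Its log2 difference was 2.49 ± 0.61 (SE, adjusted p = 0.106, limma). It was past both limits in 6 of 16 other settings, the fewest of the 6 genes (adjusted p from 0.0471 to 0.309), and lost its call after rescaling (2.04) and with any sample left out other than untreated sample 3. Its relatives had smaller differences. Hspa4l read 1.39, 0.251 and 0.918 against 2.11, 1.62 and 1.76, with a difference of 0.66 ± 0.36, and Hsph1 read 0.849, 2.09 and 0.133 against 3.60, 1.57 and 3.49, with 1.01 ± 0.49. Neither passed the test.

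The other cytosolic genes did not pass the limits. Chordc1, an HSP90-binding zinc protein, came closest, at 0.244, 0.352 and 1.16 without and 3.73, 2.12 and 3.96 with LPS. These groups did not overlap, and the difference was 1.44 ± 0.38 (log2, adjusted p = 0.120, limma), past the p limit but under the fold limit. Hspb1, the small heat shock protein HSP27, read 1.55, 0 and 1.37 without and 2.57, 2.92 and 2.98 with LPS, which also did not overlap (1.07 ± 0.45, adjusted p = 0.305, limma). Its processed copy Hsp25-ps1 read 6.06 in untreated sample 2, the sample where Hspb1 was listed at 0, and the counting may have split reads between these 2 genes. Ahsa1, the activator of the HSP90 ATPase, read 7.30, 6.21 and 9.71 without and 18.8, 12.5 and 13.6 with LPS, a difference of 0.87 ± 0.32.

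In the more familiar heat shock genes among the members the groups overlapped. The HSP70 genes Hspa1a and Hspa1b, the HSP90 gene Hsp90ab1 and the heat shock factor gene Hsf1 were not analysed here. Hspa8, the constitutive HSP70, read 62.1, 20.1 and 40.4 without and 64.0, 38.8 and 66.9 with LPS (0.56 ± 0.49). Hsp90aa1, the inducible HSP90, read 15.6, 27.2 and 51.9 against 70.03, 38.6 and 52.2 (0.87 ± 0.50). The untreated samples alone covered much of the range in both genes, from 20.1 to 62.1 and from 15.6 to 51.9. Dnajb1, the partner of HSP70 in the heat shock response, read 3.05, 1.69 and 8.43 against 7.46, 8.59 and 9.65 (1.025 ± 0.51). Bag3, which links HSP70 to autophagy, read 1.34, 2.45 and 4.98 against 7.88, 6.59 and 4.62 (0.99 ± 0.44).

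For 3 further cytosolic genes the difference was near 0 and took the other sign in another setting. The J-domain gene Dnaja1 read 26.2, 5.77 and 8.34 without and 17.4, 13.2 and 12.96 with LPS, and its difference of 0.36 ± 0.56 became -0.09 after rescaling. A processed copy of it, Gm15542, shares 1194 bases at 99.4% identity and read 44.4 in untreated sample 1 and 2.40 to 6.97 in untreated samples 2 and 3 and the LPS samples, so the high Dnaja1 value of untreated sample 1 is uncertain. The immunophilin gene Fkbp4, an HSP90 cochaperone, was at 13.8, 2.90 and 3.49 against 9.12, 3.98 and 9.70 (0.35 ± 0.63, and -0.05 after rescaling). Dnajb6, an inhibitor of protein aggregation, was almost level in LPS at 7.79, 7.75 and 7.63, within the untreated range of 6.77 to 10.3 (-0.02 ± 0.29).

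The mitochondrial pair showed unlike values. Hspd1 encodes HSP60 and Hspe1 its lid HSP10, and the genes lie head to head on chromosome 1, Hspe1 on the plus and Hspd1 on the minus strand. Of the 2 RefSeq starts of Hspd1, 1 leaves 215 bases between the genes, and the other lies past the Hspe1 start, with 94 bases between, so that these transcripts overlap. Hspd1 read 7.16, 0.902 and 1.45 without and 52.8, 18.98 and 45.8 with LPS. Every LPS sample was above every untreated sample, with a difference of 3.46 ± 0.69, the largest among the members (log2, adjusted p = 0.0693, limma), and of 3.05 after rescaling. Leaving out LPS sample 1 or LPS sample 3 ended this call, which held in 14 of 16 other settings. Hspe1 read 31.6, 22.5 and 36.1 without and 58.1, 16.0 and 49.6 with LPS, and its groups overlapped, with LPS sample 2 the lowest of all 6. Its difference was 0.28 ± 0.54 (adjusted p = 0.79, limma), and -0.19 after rescaling or -0.06 without LPS sample 1. Whether the 2 genes differed in their response was not tested. The Hspd1 pseudogenes in the table reached 1.31 at most.

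The 215 bases between these starts hold the heat shock element searched for here, the units GAA, TTC and GAA set 2 bases apart from each other on either strand, as 2 matches that overlap on opposite strands. It is shown because it lies upstream of Hspe1 and of the first of the Hspd1 starts, genes of which 1 passed the limits and the other did not. The capitals mark the joined matches, the sequence is on the plus strand at chr1:55127212-55127241 (GRCm39, RefSeq promoter window of Hspe1), and positions -95 to -66 count back from the Hspe1 start.

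Hspd1 and Hspe1: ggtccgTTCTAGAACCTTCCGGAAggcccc

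GENCODE M39 places exons of longer Hspd1 transcripts over this stretch. Of 33 members with a promoter window (250 bases upstream of a RefSeq start), 3 held a heat shock element (Hspd1, Hspe1 and Dnajb6), against 0.514% of 27025 genes. The matches of Hspd1 and Hspe1 were the same stretch, counted for each gene. The search took the exact form only. The windows of Hsph1, Dnajb4, Fkbp4, Dnaja1 and Hspb1 held forms that differ from it in a single base. Forms of that kind were not counted, for members or for all genes, so these genes cannot be said to lack an element. The members without a window were Hspa8, Hsp90aa1, Atf6 and Ppp1r15b. The log2 differences of the 3 genes with the element were 3.46, 0.28 and -0.02. A match of letters does not show that a factor binds, and none of these samples measured binding.

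**Figure D2:**
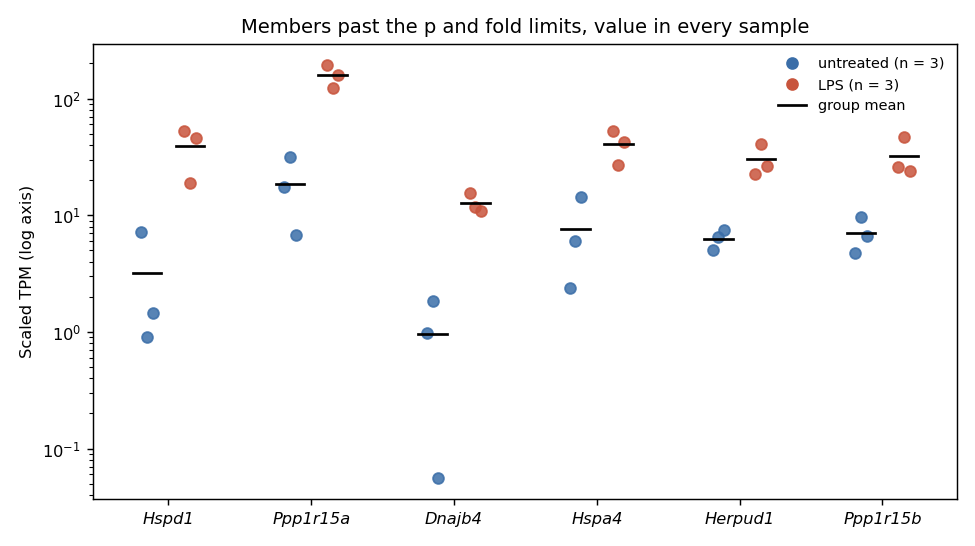
Scaled TPM in every sample for the 6 members past the p and fold limits, on a log axis, with untreated samples in blue, LPS samples in red and the group mean as a bar (3 samples per group). In each of the 6 genes the lowest LPS point lies above the highest untreated point. The untreated points of Dnajb4 run from 0.0557 to 1.82.

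None of the 8 ER chaperone and folding genes in the table passed the p and fold limits or an adjusted p of 0.05. Calr, the calcium-binding lectin chaperone calreticulin, came closest. It read 33.1, 20.9 and 19.7 without and 106.0, 61.4 and 90.0 with LPS, so that all LPS samples were above all untreated ones. The difference was 1.77 ± 0.36 (log2, adjusted p = 0.0715, limma), past the p limit but short of the fold limit, and 1.29 after rescaling. Its adjusted p was under 0.05 in 2 of 16 other settings, the filter on a mean of at least 1 and the fit without a mean-variance trend, and its lowest value there was 0.0399. Dnajb9, the J-domain protein ERdj4 that turns off IRE1, read 6.04, 18.0 and 22.8 against 50.3, 33.3 and 43.7 (1.54 ± 0.52). Pdia6, a disulfide isomerase, read 3.57, 1.89 and 5.43 against 12.1, 6.06 and 12.1 (1.28 ± 0.45). In both genes, too, the groups did not overlap.

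The other ER chaperones overlapped. Hspa5, the ER HSP70 known as BiP and the usual reporter of ER stress, read 172.2, 24.2 and 41.5 without and 142.2, 81.3 and 140.6 with LPS. Untreated sample 1 was the highest of all 6, and the difference of 1.06 ± 0.75 was well within the spread (adjusted p = 0.55, limma). Hsp90b1, the ER HSP90 GRP94, read 51.3, 3.38 and 44.0 against 38.6, 21.2 and 36.6, and its difference of 0.56 ± 0.99 became -0.59 without untreated sample 2. Canx, the membrane lectin calnexin, read 30.4, 9.77 and 50.9 against 68.5, 45.4 and 55.7 (1.13 ± 0.61). Pdia3, the isomerase that works with both lectins, read 11.7, 21.8 and 19.8 against 37.4, 20.7 and 34.6 (0.76 ± 0.39). Pdia4, another isomerase, was the only ER chaperone with a negative difference, at 55.5, 16.2 and 4.94 against 8.75, 5.45 and 10.7 (-0.99 ± 0.83, n = 3 per group, adjusted p = 0.55, limma), and untreated sample 1 was far above the rest.

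The ER stress element was searched as a CCAAT box and a CCACG box set 9 bases apart on either strand. This form lay upstream of 5 of the 33 members with a window, all of them ER chaperones, and of 0.13% of the 27025 genes. The Herpud1 window held ATTGGGCCACG, with the boxes closer together and the CCAAT box reversed. This search did not count that arrangement, for members or for all genes. The sequences are shown because they are what these 5 genes share in their promoters. Capitals mark the element, the sequences run in the direction of the gene, the build is GRCm39, and positions count back from -1, the base before the RefSeq start.

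Hspa5, chr2:34662032-34662061, plus strand, -70 to -41: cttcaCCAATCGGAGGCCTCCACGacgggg

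Hsp90b1, chr10:86541496-86541525, minus strand, -217 to -188: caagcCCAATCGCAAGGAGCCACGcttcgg

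Hsp90b1, chr10:86541391-86541420, minus strand, -112 to -83: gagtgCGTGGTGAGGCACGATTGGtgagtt

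Calr, chr8:85573683-85573742, minus strand, -182 to -123: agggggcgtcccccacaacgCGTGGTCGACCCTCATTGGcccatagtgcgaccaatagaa

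Canx, chr11:50216606-50216665, minus strand, -165 to -106: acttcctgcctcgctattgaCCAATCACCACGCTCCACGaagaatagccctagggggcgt

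Pdia6, chr12:17316472-17316531, plus strand, -118 to -59: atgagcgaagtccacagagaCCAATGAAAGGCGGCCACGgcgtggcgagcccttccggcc

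The element stands in the gene's direction in Hspa5, Canx, Pdia6 and the distal site of Hsp90b1, and reversed in Calr and the proximal site of Hsp90b1. GENCODE M39 places exons of longer transcripts over the Hspa5 stretch and the proximal Hsp90b1 stretch, an exon of Ttc41 on the other strand over the distal one, and exons of non-coding RNAs over that of Canx. The log2 differences of the 5 genes were 1.77 in Calr, 1.28 in Pdia6, 1.13 in Canx, 1.06 in Hspa5 and 0.56 in Hsp90b1, none of them past the limits. The single boxes were common: CCACG alone lay upstream of 19 members and 31.0% of genes, and CCAAT alone upstream of 18 members and 37.5% of genes. The amino acid response element was searched as TGATGNAAT and the unfolded protein response element as TGACGTGG. The NF-kappa B site was searched as GGGA, any base and TTTCC. On either strand, these exact forms were found upstream of 0 members, against 0.91%, 0.603% and 0.414% of genes. The Asns window held TGATGAAAC, which differs from TGATGNAAT in the last base only. The Chac1 and Herpud1 windows held GTTGCATCA, which differs from the reversed form ATTNCATCA in the first base only. Such variants were not counted, for members or for all genes.

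**Figure D3:**
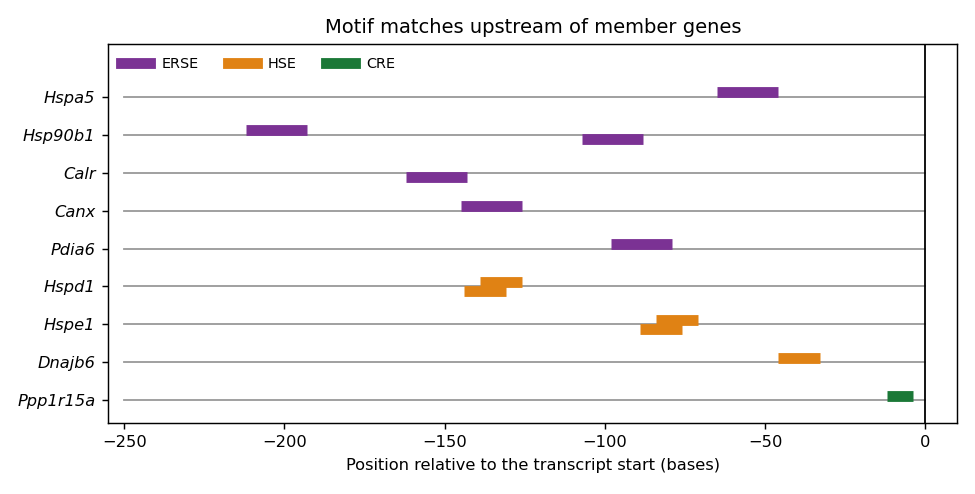
Positions of the motif matches in the 250 bases before the transcript start, in bases, for the 9 members with a match to the ER stress element (ERSE), the heat shock element (HSE) or the cyclic AMP response element (CRE). Bars above a line are matches in the direction of the gene and bars below it are on the other strand. The 5 genes with an ER stress element of the spacing searched are ER chaperones, and Hsp90b1 has 2 such elements.

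Of the 3 genes of ER-associated degradation, Herpud1 rose and the others did not pass the test. Herpud1 encodes a membrane protein that gathers the ubiquitin ligase complex of this pathway and is a target of the unfolded protein response. It read 4.98, 6.46 and 7.41 without and 22.8, 41.0 and 26.4 with LPS, with a tight untreated group and no overlap. The log2 difference was 2.06 ± 0.34 (SE, adjusted p = 0.0493, limma), just past both limits, and 1.61 after rescaling. The call under the p and fold limits held in 11 of 16 other settings and was lost without untreated sample 1 and without LPS sample 2. Edem1, a lectin that extracts misfolded glycoproteins, read 34.1, 23.5 and 10.8 against 13.2, 19.04 and 16.6 (-0.34 ± 0.46), and Sel1l, the adaptor of the ligase HRD1, read 5.69, 2.72 and 3.82 against 2.92, 2.55 and 2.90 (-0.38 ± 0.33).

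None of the 4 sensors and transducers passed the test, and 3 of them had a negative difference. Ern1, the gene of IRE1, read 2.08, 2.10 and 1.83 without and 1.301, 1.49 and 1.47 with LPS. Its groups did not overlap, but the difference was small, -0.31 ± 0.27 (log2, adjusted p = 0.56, limma). Eif2ak3, the gene of the kinase PERK, read 5.13, 5.73 and 1.07 against 1.02, 1.37 and 1.01, a difference of -1.05 ± 0.52 (n = 3 per group, adjusted p = 0.37, limma). Untreated sample 3 stood with the LPS samples in this gene. Xbp1, the transcription factor that IRE1 activates by splicing, read 24.3, 5.60 and 9.81 against 6.36, 5.59 and 8.32 (-0.67 ± 0.54), with untreated sample 1 far above the other samples. These gene-level values do not separate spliced from unspliced Xbp1. Atf6, the sensor that is cut in the Golgi, read 1.52, 9.38 and 9.25 against 6.84, 7.95 and 6.46, and its difference of 0.32 ± 0.61 was -0.08 after rescaling and -0.36 without untreated sample 1.

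Both phosphatase subunit genes rose. Ppp1r15a, known as GADD34, is induced by stress and directs protein phosphatase 1 to eIF2 alpha. It read 17.3, 31.7 and 6.79 without and 195.0, 122.4 and 157.6 with LPS, a group mean of 18.6 ± 12.5 (SD, n = 3) against 158.3 ± 36.3. All LPS samples were several times the highest untreated one. The log2 difference was 3.23 ± 0.57 (SE, adjusted p = 0.0534, limma) and 2.76 after rescaling, and it is the 1 member past the p and fold limits in all 16 other settings, with an adjusted p between 0.0196 and 0.204. Ppp1r15b, the constitutive form known as CReP, read 4.75, 9.59 and 6.59 without and 25.7, 46.6 and 23.8 with LPS. Its groups did not overlap either, with a difference of 2.03 ± 0.40 (adjusted p = 0.0696, limma) and 1.58 after rescaling. Its call held in 11 of 16 other settings and was lost without untreated sample 1 and without LPS sample 2.

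Ppp1r15a was also the 1 member with a cyclic AMP response element, TGACGTCA, upstream of its start, a match found for 1.77% of genes. It is shown because this gene had the most stable call. The sequence runs in the direction of the gene at chr7:45175693-45175721 on the minus strand (GRCm39), from -29 to -1, with the element in capitals. An exon of Plekha4 on the other strand overlaps it.

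Ppp1r15a: agaccccgcctctccggTGACGTCAgcac

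The death-linked and amino acid targets of the same response did not pass the limits. Ddit3, the transcription factor CHOP, read 48.6, 6.58 and 26.1 without and 24.4, 28.9 and 19.9 with LPS, with a difference of 0.21 ± 0.70 that was -0.26 after rescaling and -0.54 without untreated sample 2. Chac1, a glutathione-degrading enzyme, read 34.8, 0.430 and 15.3 against 17.8, 5.98 and 17.2 (0.51 ± 1.22), the widest SE of all members. Trib3, a pseudokinase, read 6.37, 3.79 and 0.597 against 8.92, 2.25 and 9.20 (0.85 ± 0.74). Asns, asparagine synthetase, was the one of these whose groups did not overlap, at 0.395, 3.31 and 2.59 against 7.63, 4.14 and 7.52 (1.38 ± 0.53, adjusted p = 0.26, limma). The transcription factor gene Atf4 was not analysed here.

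The spread within a group followed the samples. In the untreated group the median SD of the members on the log2 scale was 0.84, against 0.37 in the LPS group, and it was larger in the untreated group in 86.5% of members and 82.8% of the protein-coding genes with a mean of at least 1. LPS sample 1 held the highest LPS value in 21 of 37 members, against 32.5% of those protein-coding genes, and LPS sample 2 the lowest in 24, against 45.8%. Of the untreated samples, sample 1 was highest in 16 and sample 2 lowest in 18, against 33.8% and 38.6%. The B cell marker sum was likewise highest in sample 1 and lowest in sample 2 of each group. Hspa5, Hsp90b1, Pdia4, Xbp1, Edem1, Sel1l, Ddit3, Chac1, Dnaja1 and Fkbp4 had their highest value of all 6 samples in untreated sample 1. That sample had the highest B cell sum, 1158, and untreated sample 3 had a similar one, 1084. Sample 3 read 41.5 against 172.2 in Hspa5 and 4.94 against 55.5 in Pdia4, but 44.0 against 51.3 in Hsp90b1. The part of these cells in the results was not tested.

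**Figure D4:**
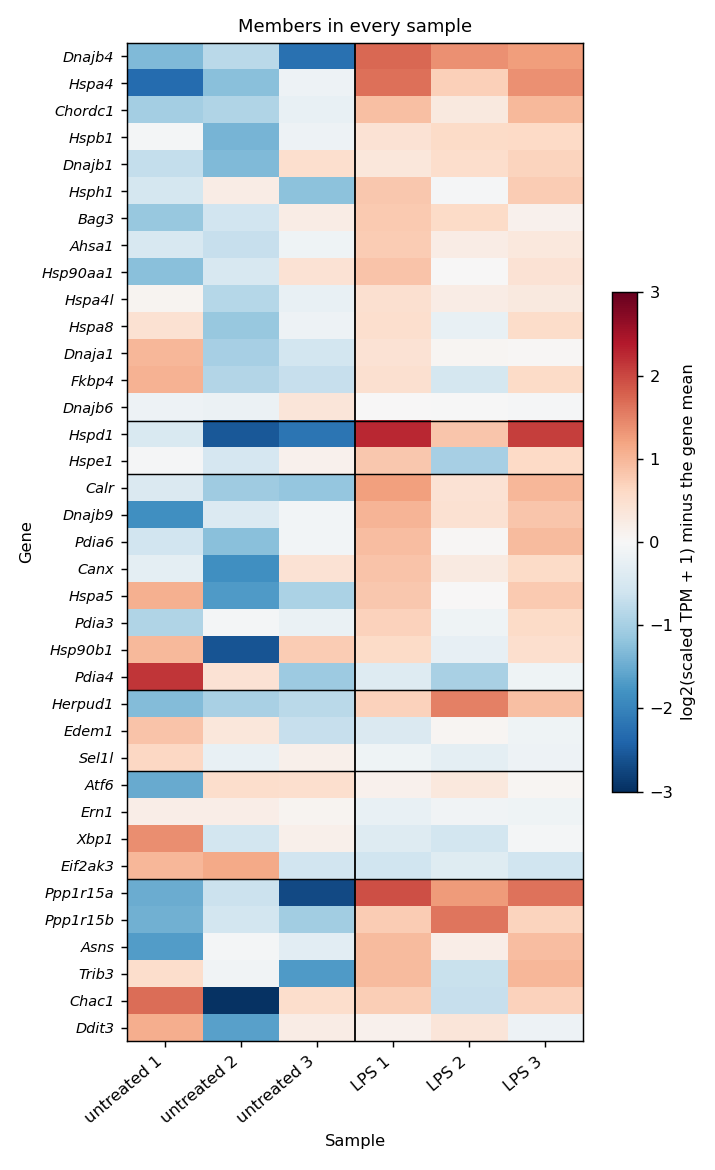
Each member's log2(scaled TPM + 1) minus its mean over the 6 samples, with genes in rows by group (horizontal lines) and samples in columns; red is above and blue below the gene's mean. Dnajb4, Hspa4, Hspd1, Herpud1 and both Ppp1r15 genes are red in all LPS samples and blue in all untreated ones, and untreated sample 1 is red for Hspa5, Hsp90b1, Pdia4, Xbp1, Chac1 and Ddit3.

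Other genes of the same pathways were read from lists of 221 genes, of which 148 were in the table and 144 had a value above 0. Of the 144 genes, 6 rose at the p and fold limits and 0 fell, against 1.69% and 1.31% of all genes tested. At an adjusted p under 0.05 (limma) 4 were higher and 1 lower, against 0.894% and 0.946%. The median difference of the 144 genes was 0.46 (log2). It was positive in 107 of them, and in 52.9% of all genes and 58.3% of the protein-coding genes tested. After rescaling the median of the 144 genes was 0.17, 89 were positive, and the p and fold limits were passed by 1 gene in each direction. Among 32 other targets of the integrated stress response, 3 rose at the p and fold limits, 29 had a positive difference and the median was 1.25. After rescaling 27 were positive and the median was 0.92. Slc7a11, the cystine transporter subunit, read 72.2, 50.1 and 51.3 without and 278.3, 309.1 and 265.6 with LPS (2.29 ± 0.28, adjusted p = 0.024, n = 3 per group, limma). Slc7a5, the large neutral amino acid transporter, read 1.70, 0.736 and 1.85 against 25.6, 10.5 and 26.75 (3.10 ± 0.46, adjusted p = 0.039, n = 3 per group, limma). Gars1, glycyl-tRNA synthetase, read 0.802, 0.373 and 8.43 against 42.5, 14.7 and 36.6 (3.37 ± 0.84, adjusted p = 0.108, n = 3 per group, limma).

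A list of 19 other J-domain genes tested, apart from those in the ER folding and mitochondrial lists, was not limited to proteins free in the cytosol. Of these, Dnajb12 rose under both rules, from 0.549, 0.561 and 0.319 to 7.09, 6.35 and 4.60 (2.24 ± 0.30). Dnajb2 rose at an adjusted p of 0.038 (limma, n = 3 per group), from 0.325, 0.293 and 0.331 to 3.88, 3.43 and 4.12. Both genes, like Dnajb4, encode partners of HSP70. Of 7 genes of the chaperonin TRiC and prefoldin, which fold actin and tubulin, Cct3 rose at the p and fold limits, from 0.806, 0.423 and 1.56 to 11.6, 3.84 and 9.36 (2.19 ± 0.48). Of 19 other ER folding and translocation genes, Sec63, which passes chains into the ER, rose at the same limits, from 1.55, 0.305 and 0.371 to 6.96, 5.93 and 6.05 (2.14 ± 0.37). The 1 pathway gene that fell at an adjusted p under 0.05 was Man1b1, a mannosidase that marks glycoproteins for degradation, from 22.7, 15.2 and 14.6 to 4.17, 4.13 and 3.64 (-1.87 ± 0.30, adjusted p = 0.046, n = 3 per group, limma). No gene passed either rule among 9 other HSP70 and small heat shock genes or 14 cochaperones and heat shock factors. Nor did any of 10 other mitochondrial chaperones and proteases or 17 other sensors and kinases. The largest differences in these lists were -0.90 in Hspa14, 1.67 in Ppid, 1.58 in Hscb and 1.64 in Rtcb. Hspa1a, Hspa1b, Hsp90ab1 and Hsf1 were not among the genes tested.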

How the data were processed

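RNA of 6 samples was sequenced with a stranded mRNA kit. The processing notes of the submitters name fastp, STAR and kallisto and the builds GRCm39 and mm10, and the methods name alignment to GRCm39. The deposited table is titled normalized counts, but the values behave as TPM for which the authors took the mean of all transcripts per gene and then applied a factor per sample (0.861 to 1.117), as found from the digits of the values. TPM keeps no read depth, so no count test was run and precision rests on the spread of 3 samples per group. Of the 38739 genes, those at 0 in all samples were left out, leaving 23049. They were fitted with limma 3.58.1 in R 4.3.3 on log2(value + 1), with eBayes and a mean-variance trend, LPS against untreated, two-sided, without covariates. A simulation with known changes tested the script. Fold changes on this scale understate the change of low genes. Genes were called at p under 0.01 with a log2 difference over 2 (the limits of the study) or at a Benjamini-Hochberg adjusted p under 0.05. Members called under either rule or among the largest changes of their group are named with all values, and up to 3 called genes per pathway list. The members and lists were chosen with earlier results of these data known. Names were matched to GENCODE M39, near-identical copies were searched with blastn 2.17.0, and promoter windows of RefSeq were located in GRCm39 by exact match. Settings varied were the pseudocount, the filter, the scaling, the variance model, the replicate block and each sample left out.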

Additional observations from a re-analysis of the deposited data

How the results depend on the processing

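The number of members higher at the p and fold limits (6) was 2 with a pseudocount of 5 and 3 after rescaling to protein-coding genes, and 3 to 6 with 1 sample left out. At an adjusted p under 0.05 (2) it was 1 with a pseudocount of 5, 7 with a mean of at least 1, 0 with genes at 0 kept, 0 after rescaling, 5 without a mean-variance trend and 0 to 2 with 1 sample left out. No member was lower in any setting. Over all genes tested, 389 higher and 301 lower at the p and fold limits became 856 and 493 with a pseudocount of 0.1, 129 and 168 with 5, 154 and 127 after rescaling, 1053 and 721 without a fold limit, and 260 to 463 and 263 to 394 with 1 sample left out. With protein-coding genes alone, a setting added after the data were seen, 45 were lower, and 64 at an adjusted p under 0.05. The 206 higher and 218 lower at that adjusted p became 557 and 483 with a mean of at least 1, 49 and 58 after rescaling, 687 and 611 without the trend, and 1 to 217 and 10 to 252 with 1 sample left out. The 6 pathway genes higher at the p and fold limits became 13, with 1 lower, at a pseudocount of 0.1, 3 at 5 and 1, with 1 lower, after rescaling, and 4 to 11 with 1 sample left out. At the adjusted p, 4 higher and 1 lower became 10 higher with a mean of at least 1, 0 and 0 after rescaling, 10 and 4 without the trend, 0 lower when centred on the median, and 0 to 3 higher and 0 lower with 1 sample left out. With the replicate number as a block, the adjusted p limit left 1 gene higher and 15 lower, with 0 members and 0 pathway genes in either direction, and 5 members passed the p and fold limits. The main fit did not pair samples by number, since the sources state no pairing. Correlations of deviations between same-numbered samples were 0.0935, 0.199 and 0.0835, and each LPS sample correlated best with its own number. The erythroid marker sums followed the numbers, at 356.0, 21.5 and 5629 in untreated and 571.9, 164.8 and 4651 in LPS samples 1, 2 and 3. The order of the monocyte or macrophage sums differed between the groups. Whether equal numbers share an origin or a batch was not tested. Signs turned after rescaling for Fkbp4 (-0.0545), Atf6 (-0.0839), Dnaja1 (-0.0912), Hspe1 (-0.193) and Ddit3 (-0.261). With 1 sample left out the log2 difference ran from -0.0467 (without untreated replicate 2) to 0.955 in Dnaja1, -0.113 to 0.154 (without untreated replicate 3) in Dnajb6, -0.0576 (without LPS replicate 1) to 0.843 in Hspe1, -0.594 (without untreated replicate 2) to 1.19 in Hsp90b1, -0.777 to 0.0054 (without untreated replicate 1) in Edem1, -0.355 (without untreated replicate 1) to 0.667 in Atf6, and, each lowest without untreated replicate 2, -0.544 to 0.811 in Ddit3 and -0.852 to 1.47 in Chac1. The cause of these changes was not tested. Of 592 member values in the 16 other settings, 555 kept their sign and their side of the limits. With 3 samples per group and no known depth, small differences of low genes were not detectable.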
